A study of Bos taurus with 6 samples.

Results

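The WNT genes AXIN2, LEF1, TCF7, NKD2, WNT11, RSPO3, FZD1, FZD7 and FZD8, were followed through the depth of bovine articular cartilage. These 9 receptors, effectors and target genes were taken by gene symbol, and they held 12 of the 24016 probesets tested on the array and 9 of 11626 named genes. FZD1, FZD8 and TCF7 had 2 probesets each and the other genes 1. The tissue was grade 1 (normal) cartilage of the femoral condyles of 2 skeletally mature cattle aged 14 to 30 months, called bov1 and bov4 in the labels and animal 1 and animal 2 here. No treatment or genetic change was applied. From each animal the superficial zone (SZ, the upper 10% of the slices), the middle zone (MZ, the middle 40%) and the deep zone (DZ, the lower 30%) were each measured on 1 Affymetrix bovine array, giving 6 arrays and n = 2 per zone. All samples started from 5 ng of total RNA that was amplified before labelling, and slices of about 200 µm between zones were discarded.

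WNT proteins are secreted ligands that bind Frizzled receptors, together with LRP co-receptors in the branch that runs through beta-catenin. In that branch the ligand stops the AXIN-containing destruction complex from degrading beta-catenin, which then enters the nucleus and acts with the LEF1 and TCF family of DNA-binding factors on target genes. R-spondins strengthen the signal by sparing Frizzled receptors from turnover. In joint tissue the pathway is known for its part in surface chondrocytes, in hypertrophy and in bone formation, and cartilage makes secreted antagonists of it.

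Among the 9 genes, AXIN2, a destruction complex scaffold that is itself a widely used target gene of beta-catenin signalling, was higher in SZ than in DZ by 2.59 on the log2 scale (SE 0.36), a 6.02-fold difference. It was the only gene of the 9 that passed the test in any comparison. The ligand WNT11 read 1.97 lower and the Frizzled receptor FZD7 1.47 higher in SZ than in DZ, and neither passed (limma adjusted p = 0.0593 and 0.0782). RSPO3, an R-spondin, was read at a raised level in MZ and DZ of animal 1 and near the floor of the array in animal 2. LEF1, TCF7, NKD2, FZD1 and the brighter FZD8 probeset differed by less than 1 log2 unit in each comparison. Values are log2 expression, where 1 unit is a doubling. Differences were tested with limma over all 24016 probesets with animal as a block, and a Benjamini-Hochberg adjusted p under 0.05 was called.

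**Figure D1:**
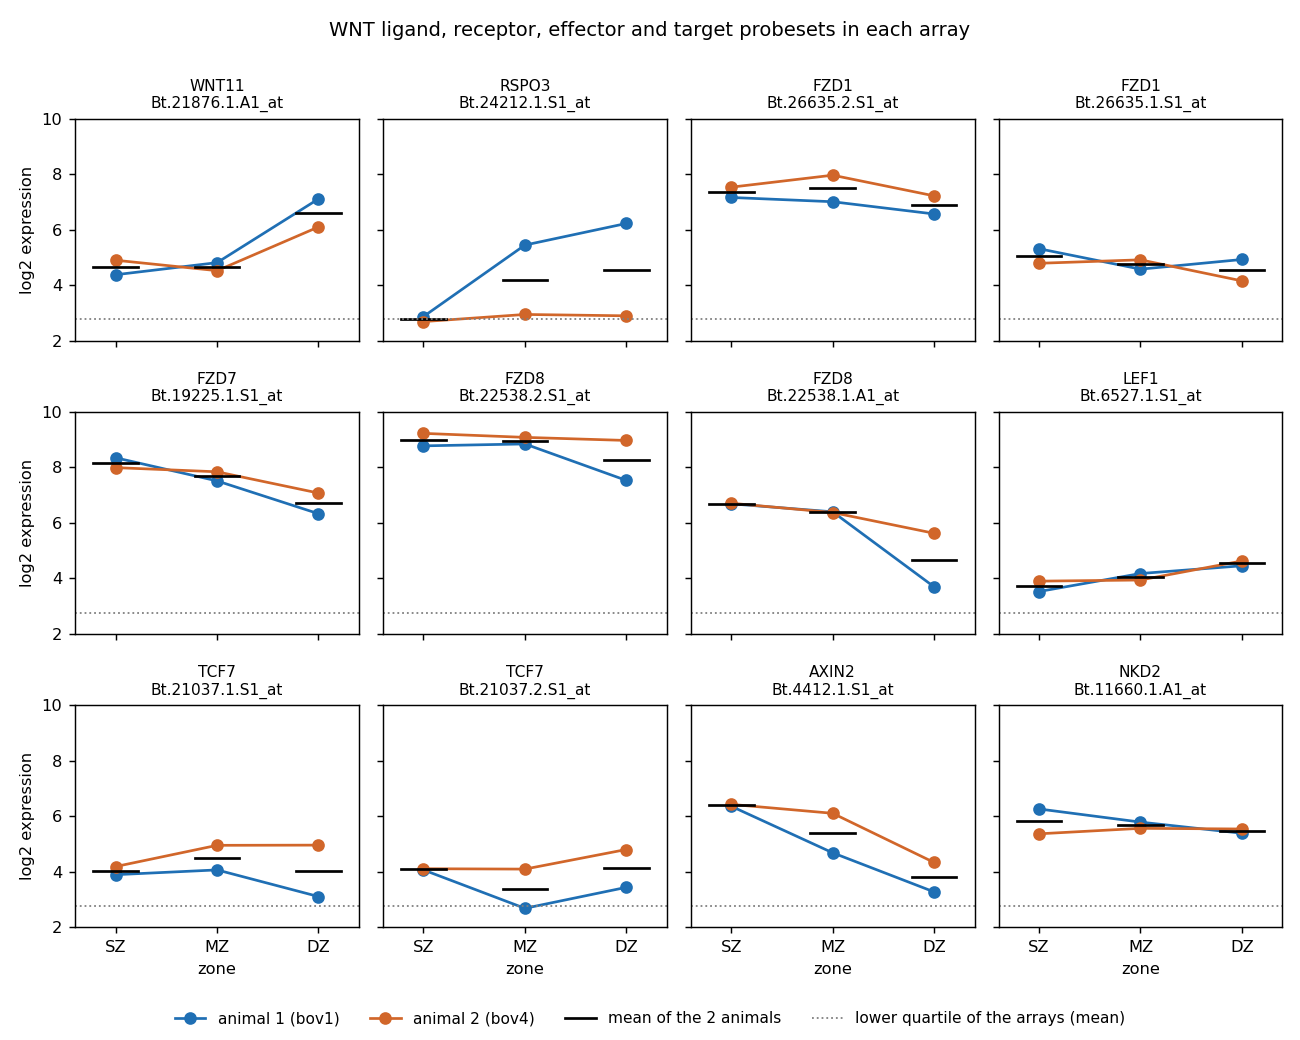
Log2 expression of each of the 12 probesets (vertical axis) in SZ, MZ and DZ (horizontal axis). Each coloured line joins the 3 zones of 1 animal, black bars are means of the 2 animals, and the dotted line is the mean lower quartile of the 6 arrays. AXIN2, FZD7 and the dimmer FZD8 probeset are ordered SZ, MZ, DZ from high to low in both animals, WNT11 is highest in DZ in both, and RSPO3 runs from 2.87 in SZ to 6.23 in DZ of animal 1.

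The 6 arrays had medians of 4.42 to 4.46 and lower quartiles of 2.71 to 2.87, and a probeset near or under the lower quartile has no reliable level. Chondrocyte markers (8 of 10 measured, among them COL2A1 and ACAN) gave a log2 summed signal between 15.05 and 15.71 on the 6 arrays. Of the 8, 0 lay under the lower quartile in any array. The sum is led by the brightest genes, such as COL2A1, and does not show that each marker was even across zones. Of the 8, 1 was called lower in SZ than in DZ, beside 1.72% of all probesets. Their SZ minus DZ differences ran from −4.80 to 0.57. The DZ arrays carry another code in their descriptions than the SZ and MZ arrays. The labels do not explain the code, so a difference between DZ and the other zones cannot be told apart from a difference between the codes. On 27 control probesets for bacterial transcripts (dap, lys, phe, thr and trp) DZ read 2.34 below SZ by the median and MZ 1.26 below SZ. DZ of animal 1 stood apart from the other arrays on the 6 bioB control probesets, with a mean of 6.79 against 9.40 to 10.82. The cyclophilin 3' minus 5' value, which grows when RNA or its amplified copies are short, was 3.30 in that array and 1.69 to 2.66 in the other 5. Differences between SZ and DZ are therefore also given without it for the members and for the pathway genes called. In these bulk slices fewer cells of a type and less RNA per cell cannot be told apart.

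WNT11 is a ligand known mainly for the branch of the pathway that does not use beta-catenin. It read 4.38 in SZ, 4.81 in MZ and 7.11 in DZ of animal 1, and 4.90, 4.52 and 6.10 in the same order in animal 2. Both DZ arrays lay above all SZ and MZ arrays, and the SZ and MZ arrays overlapped. As SZ minus DZ the difference was −1.97 (SE 0.38, 95% interval −2.89 to −1.04), with −2.73 in animal 1 and −1.20 in animal 2. As MZ minus DZ it was −1.94 (SE 0.38, limma adjusted p = 0.136), and SZ and MZ differed by −0.03 (95% interval −0.95 to 0.89). Without DZ of animal 1 the SZ minus DZ value was −1.40 (limma adjusted p = 0.255). With the dim probesets of the array left out before the fit it was called, with the same difference and a limma adjusted p of 0.0332. In the deposited dCHIP table the difference was smaller, at −1.14 (adjusted p = 0.0845).

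RSPO3 encodes a secreted R-spondin, which acts through LGR receptors and the ligases ZNRF3 and RNF43. In animal 1 it read 2.87 in SZ, 5.45 in MZ and 6.23 in DZ. In animal 2 it read 2.69, 2.95 and 2.90, all close to the lower quartile of those arrays. The zone means, 2.78 ± 0.13, 4.20 ± 1.77 and 4.56 ± 2.35 (SD, n = 2), therefore describe neither animal in MZ or DZ. The animals differed 5.66-fold in MZ and 10.0-fold in DZ, against 1.13-fold in SZ. A difference between the animals at least that large was found for 0.279% of probesets in MZ and 0.158% in DZ. SZ minus DZ was −1.78 (SE 0.69, limma adjusted p = 0.262), from −3.35 in animal 1 and −0.21 in animal 2. Without DZ of animal 1 it was −0.79 (adjusted p = 0.767), while without SZ of animal 2 it was −3.15 and passed (adjusted p = 0.0238). The dCHIP table showed the same split, with 7.06 in DZ of animal 1 and 4.51 in DZ of animal 2. Whether the split belongs to the animals or to the cores cannot be told apart with 1 set of slices per animal.

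Frizzled receptors carry an outer cysteine-rich domain that binds the ligand and a membrane part that recruits Dishevelled. FZD7 read 8.35 in SZ, 7.52 in MZ and 6.33 in DZ of animal 1, and 7.99, 7.84 and 7.08 in animal 2. In both animals SZ was the highest and DZ the lowest zone, and the arrays of the 3 zones did not overlap. SZ exceeded DZ by 1.47 (SE 0.31, 95% interval 0.70 to 2.23), a 2.76-fold difference that did not pass (limma adjusted p = 0.0782). The steps from SZ to MZ (0.49, SE 0.31) and from MZ to DZ (0.97, SE 0.31) did not pass either, with limma adjusted p-values of 0.75 and 0.376. Without DZ of animal 1, SZ minus DZ was 1.09, and without SZ of animal 2 it was 1.91, the only setting of 14 in which FZD7 passed (adjusted p = 0.0498).

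FZD8 was read by 2 probesets that gave differences of unequal size. The brighter one read 8.78 and 9.23 in the SZ arrays of animal 1 and animal 2, 8.85 and 9.08 in the MZ arrays, and 7.53 and 8.97 in the DZ arrays. The dimmer one read 6.69 and 6.71 in SZ, 6.40 and 6.38 in MZ, and 3.70 and 5.63 in DZ. On both probesets DZ of animal 1 was the lowest array. On the brighter probeset DZ of animal 2 lay within the range of the SZ and MZ arrays, whereas on the dimmer one both DZ arrays lay below all others. The difference between SZ and DZ was 0.75 or 1.68-fold (SE 0.34, limma adjusted p = 0.323) on the brighter probeset. On the dimmer one it was 2.04 or 4.10-fold (SE 0.50, limma adjusted p = 0.107). These values were 0.20 (SE 0.33) and 1.07 (SE 0.33) without DZ of animal 1.

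FZD1 was also read by 2 probesets, and they did not run alike. On the brighter one the zone means were 7.35 ± 0.26 for SZ, 7.49 ± 0.68 for MZ and 6.89 ± 0.46 for DZ (SD, n = 2). On the dimmer one they were 5.05 ± 0.37, 4.75 ± 0.24 and 4.54 ± 0.54. The zones overlapped on both, and across the 6 arrays the probesets correlated with r = 0.02, as a description only. SZ minus DZ was 0.45 (95% interval −0.15 to 1.06) on the brighter and 0.51 (95% interval −0.27 to 1.29) on the dimmer probeset, with limma adjusted p-values of 0.41 and 0.469. They were 0.46 (SE 0.37) and 0.85 (SE 0.41) without DZ of animal 1.

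**Figure D2:**
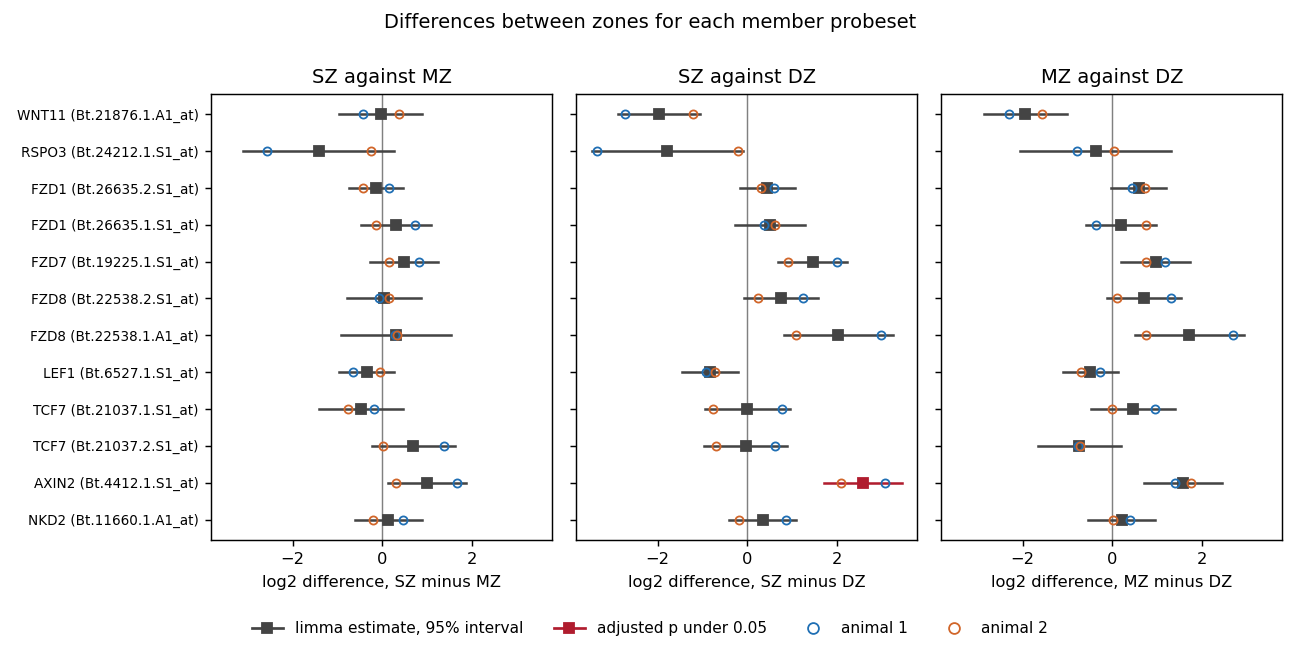
Log2 differences between zones (horizontal axis) for the 12 probesets (vertical axis). Squares are limma estimates with 95% intervals, in red where the adjusted p was under 0.05, and open circles are the differences within animal 1 and animal 2. For SZ against DZ the AXIN2 interval runs from 1.72 to 3.46, and the RSPO3 circles lie at −3.35 and −0.21.

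LEF1 and TCF7 are the DNA-binding partners of beta-catenin, and both are also target genes of the pathway in several tissues. LEF1 was dim, at 3.53 and 3.90 in SZ, 4.18 and 3.94 in MZ and 4.46 and 4.63 in DZ. LEF1 was 1 gene of the 9 ordered DZ above MZ above SZ within both animals, an order that 6.00% of all probesets had. Its difference between SZ and DZ was −0.83 (SE 0.25, 95% interval −1.44 to −0.21) and did not pass (limma adjusted p = 0.17). It was −0.88 without DZ of animal 1, and over the 14 alternative settings it ran from −1.03 to −0.63 and was called in 0 of them.

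TCF7 was read by 2 probesets whose zone means placed MZ differently. The brighter one read 3.89, 4.06 and 3.10 in SZ, MZ and DZ of animal 1 and 4.19, 4.95 and 4.96 in animal 2. The SZ minus DZ value was 0.01 (95% interval −0.93 to 0.95), made of 0.79 in animal 1 and −0.77 in animal 2. It was −0.62 (SE 0.37) without DZ of animal 1. The dimmer probeset read 4.06, 2.68 and 3.44 in SZ, MZ and DZ of animal 1 and 4.11, 4.09 and 4.80 in animal 2. On it MZ read lowest in both animals, but in animal 2 only 0.01 below SZ. Its MZ value in animal 1 lay under the lower quartile of that array (2.80). On the brighter probeset MZ lay above SZ in both animals. SZ minus MZ was 0.70 on the dimmer probeset (limma adjusted p = 0.699) and −0.47 on the brighter one (limma adjusted p = 0.817). MZ minus DZ on the dimmer probeset was −0.73 (limma adjusted p = 0.618), with −0.76 and −0.71 in the 2 animals. With an interval this wide, equal levels in SZ and DZ are not shown.

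AXIN2 read 6.36 in SZ, 4.68 in MZ and 3.27 in DZ of animal 1. In animal 2 it read 6.43, 6.10 and 4.33. The SZ arrays agreed within 1.05-fold, while the MZ arrays were 2.68-fold apart, and no array of one zone overlapped those of another. With FZD7, AXIN2 was 1 of 2 genes ordered SZ above MZ above DZ within both animals on the brightest probeset, beside 8.03% of all probesets. The dimmer FZD8 probeset had the same order. SZ minus DZ was 3.09 in animal 1 and 2.09 in animal 2 (limma adjusted p = 0.0226). AXIN2 was 1 of 9 member genes called for SZ against DZ, where 2.75% of all probesets were called, 1.03% higher and 1.72% lower in SZ. MZ minus DZ was 1.59 (SE 0.36, limma adjusted p = 0.185), with 1.41 and 1.77 in the 2 animals. SZ minus MZ, which lies within 1 description code, was 1.00 (SE 0.36, limma adjusted p = 0.487), with 1.68 and 0.32 in the 2 animals.

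The call of AXIN2 for SZ against DZ was kept in 9 of 14 alternative settings, and the difference was between 2.00 and 3.18 in all of them. It was lost without DZ of animal 1 (2.43, limma adjusted p = 0.125), without DZ of animal 2 (2.75, adjusted p = 0.09) and without SZ of animal 1 (2.00, adjusted p = 0.0658). Without the animal block the adjusted p was 0.103, and with animal as a random block it was 0.0679. The dCHIP table gave 2.06 (adjusted p = 0.013). Asked across all zones at once, limma's F statistic for AXIN2 had an adjusted p of 0.0505 and was not called, while 1.84% of probesets were.

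NKD2, an intracellular protein that binds Dishevelled and dampens the signal, had zone means of 5.81 ± 0.63 for SZ, 5.68 ± 0.16 for MZ and 5.46 ± 0.11 for DZ (SD, n = 2). The high SZ value came from animal 1, at 6.26, while SZ of animal 2, at 5.37, was the lowest of the 6 arrays. SZ exceeded DZ by 0.35 (95% interval −0.40 to 1.10, limma adjusted p = 0.607). The difference was −0.0063 without DZ of animal 1.

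For SZ against MZ 0 of the 9 genes were called by limma, where 0.0416% of all probesets were (0.0250% higher and 0.0167% lower in SZ), and 1 of the 9, AXIN2, had an unadjusted p under 0.05, beside 8.84% of all probesets. For MZ against DZ 0 of 9 were called, where 0.704% of all probesets were (0.0916% higher and 0.612% lower in MZ), and 3 of the 9, AXIN2, WNT11 and FZD7, had an unadjusted p under 0.05, beside 9.93% of all probesets. For SZ against DZ 5 of the 9 did, namely AXIN2, WNT11, FZD7, LEF1 and RSPO3, beside 17.6% of all probesets. The median SZ minus DZ difference of the 9 genes was 0.35, beside 0.06 over all probesets. The SZ and DZ arrays did not overlap for 5 of the 9 genes (2 higher and 3 lower in SZ), beside 45.5% of all probesets (26.3% higher and 19.1% lower). The SZ and MZ arrays did not overlap for 4 of the 9 (2 higher and 2 lower in SZ), beside 35.2% of all probesets (17.7% higher and 17.5% lower). The MZ and DZ arrays did not overlap for 5 of the 9 (3 higher and 2 lower in MZ), beside 38.0% of all probesets (22.7% higher and 15.2% lower). In each count the share among the 9 genes rests on few genes, and the genes were chosen with results of these arrays known.

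**Figure D3:**
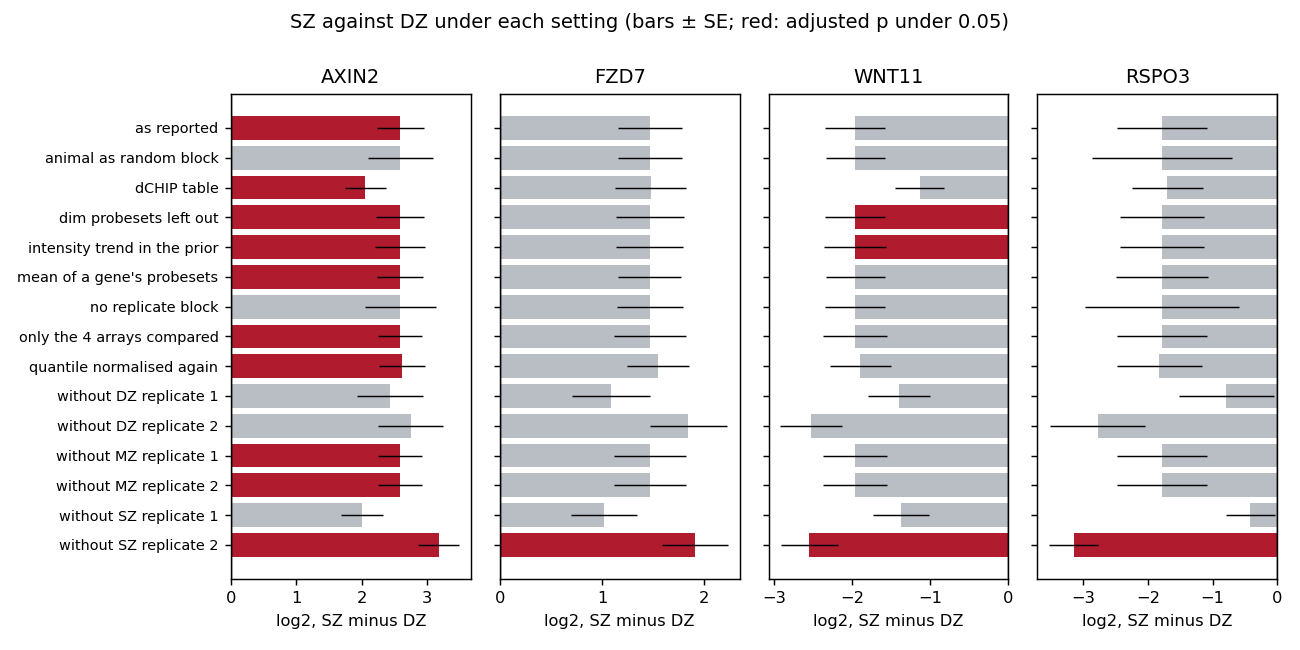
SZ minus DZ log2 difference (horizontal axis) of AXIN2, FZD7, WNT11 and RSPO3 as reported and under 14 alternative settings (vertical axis), with bars for the estimate and whiskers for its SE. Red bars have an adjusted p under 0.05. The sign of each gene holds in every setting, while AXIN2 is called in 9 alternatives, WNT11 in 3 and FZD7 and RSPO3 in 1 each.

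The genes whose levels ran most like AXIN2 over the 6 arrays were FRY (r = 0.99), BMPER (r = 0.99) and COPG2 (r = 0.99), among 4777 named genes whose values spanned at least 1 log2 unit. FRY encodes a large cytoskeletal scaffold protein, BMPER a secreted modulator of bone morphogenetic proteins, and COPG2 a subunit of the coat of Golgi transport vesicles. BMPER read 9.69 and 9.84 in SZ, 6.54 and 8.69 in MZ and 4.18 and 5.21 in DZ. As in AXIN2, the MZ arrays were the ones on which the animals lay farthest apart. With 6 arrays from 2 animals and so many genes, r values this high describe the arrays only.

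Other genes of the pathway, sorted into lists by role, mostly did not pass. Of 116 genes listed beside the 9 members, 69 had a named probeset. For SZ against DZ 2 were higher and 2 lower in SZ and 65 did not pass, beside 1.03% of all probesets called higher and 1.72% called lower. An unadjusted p under 0.05 was found for 28 of the 69, beside 17.6% of all probesets, and their median difference was −0.13, beside 0.06 over all probesets. For MZ against DZ 2 were lower in MZ and 67 did not pass, beside 0.612% of all probesets called lower. For SZ against MZ 1 was lower in SZ and 68 did not pass, beside 0.0167% called lower. Among 12 further receptor and R-spondin genes and 4 further ligands and secretion genes, 0 were called in any comparison. The receptor and R-spondin genes had 5 with an unadjusted p under 0.05 for SZ against DZ, and their SZ minus DZ differences ran from −1.20 to 0.83.

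Apart from AXIN2, the genes named from the core of the beta-catenin branch were not called. CTNNB1, which encodes beta-catenin, had means of 11.07 ± 0.04 for SZ, 11.29 ± 0.14 for MZ and 11.20 ± 0.38 for DZ (SD, n = 2). Its SZ minus DZ difference was −0.13 (95% interval −0.80 to 0.53, limma adjusted p = 0.842). The co-receptor LRP5 differed by 0.01 (95% interval −0.59 to 0.60), and LRP6 had no named probeset. TCF7L2, a further member of the TCF family, differed by 0.68 (95% interval −0.02 to 1.38, limma adjusted p = 0.293). A dimmer TCF7L2 probeset also gave 0.68 (95% interval 0.06 to 1.29, limma adjusted p = 0.245), with SZ and DZ arrays that did not overlap. Without DZ of animal 1 the brighter gave 0.29 and the dimmer 0.93. Of 12 other genes of the Dishevelled and destruction complex list and 10 other nuclear effectors, 0 were called in any comparison. They included 2 and 4 genes with an unadjusted p under 0.05 for SZ against DZ, beside 17.6% of all probesets.

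Of 7 further target genes measured, CD44 was called lower in SZ than in DZ, the opposite direction to AXIN2, and the other 6 did not pass. Of all probesets 1.72% were called lower in SZ than in DZ. CD44, the cell-surface receptor of hyaluronan, is a target gene in intestine and is expressed by many cell types. It read 4.35 and 3.87 in SZ, 2.52 and 2.24 in MZ and 6.83 and 6.62 in DZ, so that MZ was the lowest zone and both MZ arrays lay under the lower quartile. Between SZ and DZ the difference was −2.61 (SE 0.23, limma adjusted p = 0.00605), and MZ minus DZ was −4.35 (SE 0.23, limma adjusted p = 0.00499), a size that is uncertain because MZ is at the floor. Both calls held without DZ of animal 1 (−2.69, limma adjusted p = 0.0321, and −4.43, limma adjusted p = 0.021). BAMBI, a decoy receptor of the TGF-beta family and a target gene in tumour cells, was lower in MZ than in DZ by 2.48 (SE 0.33, limma adjusted p = 0.0417), and this call was kept in 8 of 14 alternative settings. Without DZ of animal 1 its difference was −2.94 and not called (limma adjusted p = 0.05), and without DZ of animal 2 it was −2.01 (limma adjusted p = 0.136).

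Of 11 secreted antagonists measured, 1 was higher and 1 lower in SZ than in DZ and 9 did not pass. Of all probesets 1.03% were called higher and 1.72% lower. FRZB was lower in SZ than in DZ, at −4.02 (SE 0.27, limma adjusted p = 0.00395), and SFRP1 was higher, at 2.69 (SE 0.44, limma adjusted p = 0.038, kept in 7 of 14 alternative settings). Without DZ of animal 1 FRZB was called, at −4.07 (limma adjusted p = 0.0186), and SFRP1 was not, at 1.99 (limma adjusted p = 0.139). FRZB was also lower in SZ than in MZ, at −3.71 (limma adjusted p = 0.0339, kept in 8 of 14). In the planar polarity and calcium branch 1 of 12 genes was called for SZ against DZ, beside 2.75% of all probesets. This was DAAM2, a formin that binds Dishevelled, which read 6.28 and 6.64 in SZ and 3.60 and 3.92 in DZ. SZ exceeded DZ by 2.70 (SE 0.28, limma adjusted p = 0.0112), and without DZ of animal 1 it was 2.91 (limma adjusted p = 0.0401). A dimmer DAAM2 probeset was also called (limma adjusted p = 0.00467), but its DZ arrays, at 2.88 and 2.51, lay near and under the lower quartile, so the size of its difference is uncertain. In 12 of the 14 alternatives DAAM2 remained called.

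**Figure D4:**
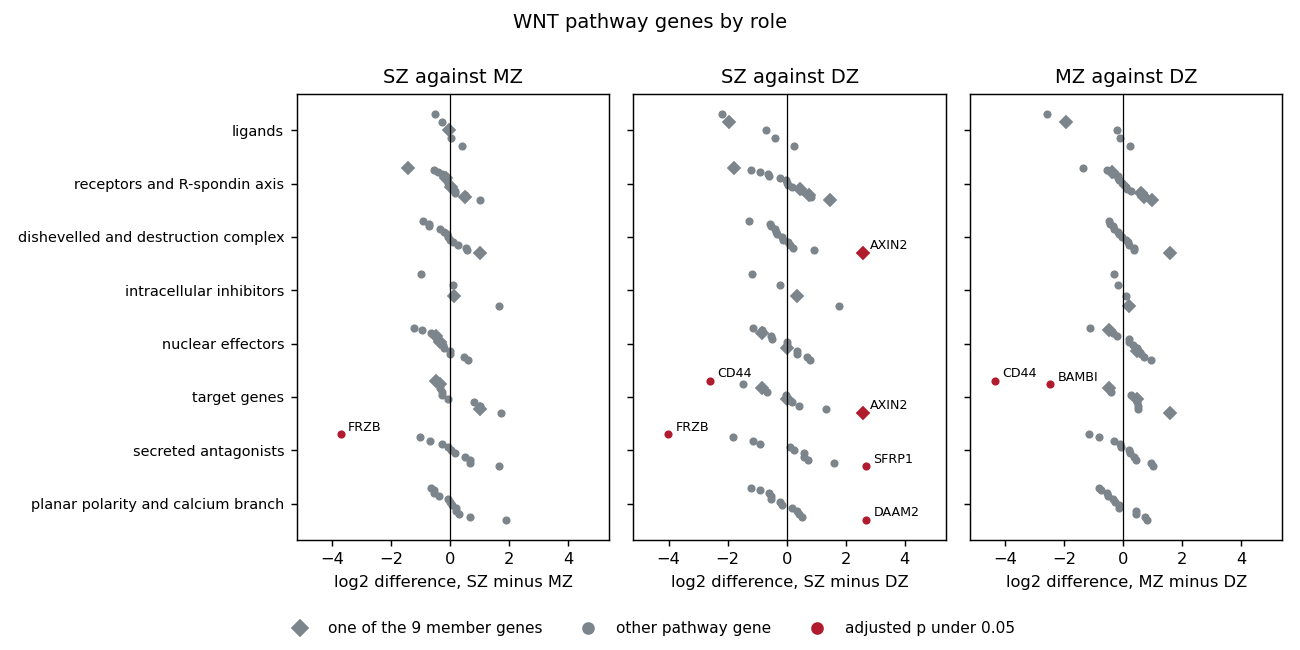
Log2 differences between zones (horizontal axis) of each measured WNT pathway gene, by role (vertical axis). Diamonds are the 9 member genes, circles the others, and red marks an adjusted p under 0.05. The named red points are AXIN2, CD44, FRZB, SFRP1 and DAAM2 for SZ against DZ.

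Summed markers of osteoblasts, hypertrophic chondrocytes, endothelium, leukocytes and osteoclasts were higher in DZ, as were WNT11 and CD44 in both animals. RSPO3 was higher in DZ than in SZ mainly in animal 1, where it was also raised in MZ (5.45). The log2 summed signal of 4 measured osteoblast markers of 8 was 9.78 and 6.96 in SZ, 6.88 and 7.62 in MZ and 13.83 and 14.33 in DZ, and 3 of the 4 were called lower in SZ than in DZ. Of 5 hypertrophic chondrocyte markers 4 were lower in SZ than in DZ, with summed signals of 8.68 and 6.78 in SZ and 12.96 and 11.29 in DZ. Of 8 endothelial markers 3 were lower, with 6.13 and 6.63 in SZ and 8.15 and 9.98 in DZ, and of 8 leukocyte markers 5 were, with 6.39 and 6.22 in SZ and 9.46 and 9.33 in DZ. Of 4 osteoclast markers measured 2 were lower in SZ than in DZ (summed signal 8.24 and 8.46 against 11.84 and 11.27). Of 4 red cell markers 0 passed (0 with an unadjusted p under 0.05), and their sums were 5.17 and 5.32 in SZ and 5.57 and 4.81 in DZ. Of 5 synovial and fibroblast markers 2 were called lower in SZ, while the summed signal, led by COL3A1, ran the other way, with sums of 13.15 and 13.11 in SZ and 12.33 and 12.84 in DZ. Surface zone markers moved with AXIN2, FZD7 and DAAM2. Of 4 of them 3 were higher in SZ than in DZ, and their sums were 14.30 and 14.49 in SZ, 11.42 and 13.33 in MZ and 8.63 and 10.68 in DZ. The part of these cells in the levels of the WNT genes was not tested. Beside these counts, 1.03% of all probesets were called higher and 1.72% lower in SZ than in DZ.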

How the data were processed

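Expression was measured on 6 Affymetrix bovine arrays, 1 per zone and animal. The deposited value table holds 1 log2 value per probeset and array, normalised by the authors with RMA according to the submitters' processing notes (no version given). That the scale is log2 follows from the range of the values. A deposited matrix whose name carries dCHIP, also in log2, gave gene symbols and an alternative. The sources used here give neither its settings nor a genome build, so no coordinates are printed. Neither table holds detection calls, and the number of arrays limits the precision.

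Of 24128 probesets 112 controls were left out and 24016 tested, with no filter. Symbols were updated through RefSeq synonyms (961 probesets renamed), and 6877 probesets stay unnamed. The brightest probeset by mean stood for a gene.

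limma 3.58.1 in R 4.3.3 fitted zone and animal to all 6 arrays (residual degrees of freedom 2, prior 4.15) with two-sided moderated tests, Benjamini-Hochberg adjustment over 24016 probesets and a threshold of 0.05. Animal is a block because, per the labels, each animal gave all 3 zones. Across probesets, animal 1 minus animal 2 correlated between zones (r = 0.26 between SZ and MZ, 0.22 between SZ and DZ, 0.35 between MZ and DZ). The alternative with animal as a random block estimated a correlation within animals of 0.09, which is another measure and not comparable in size. A run on simulated data checked only that the fit returned a shift added to SZ, and it does not test the calls reported here. Alternatives are in the closing section.

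The members, lists and rules were chosen with earlier results of these data known. Every member probeset was named. Pathway genes were named where called (up to 4 per list and comparison by size), and CTNNB1, FRZB, SFRP1, LRP5, LRP6 and TCF7L2 always. For each called member the 3 genes of highest correlation were named.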

Additional observations from a re-analysis of the deposited data

How the results depend on the processing

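Each result was recomputed under 14 alternative settings, and the causes of the shifts were not tested. With no replicate block, that is without pairing the arrays by animal, the probesets called numbered 3 for SZ against MZ (10 as reported), 295 for SZ against DZ (660), 62 for MZ against DZ (169) and 169 for any zone (443). With animal as a random block they numbered 5, 425, 112 and 263, and the dCHIP values gave 135, 1262, 259 and 828. Leaving out dim probesets gave 111 for SZ against MZ. An intensity trend in the prior gave 99 for SZ against MZ and 272 for MZ against DZ, and fitting only the 4 arrays compared gave 31 and 258. Leaving out 1 array at a time gave 0 to 31 for SZ against MZ, 204 to 646 for SZ against DZ, 12 to 258 for MZ against DZ and 154 to 434 for any zone. The lone array of a zone was then assumed to vary like the others. The lowest SZ against DZ count came without DZ of animal 2, and the lowest MZ against DZ count without MZ of animal 2.

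Of the 9 member genes 0 were called for SZ against MZ and 0 for MZ against DZ in every setting run. For SZ against DZ 1 was called as reported, where 2.75% of all probesets were. This count moved in several settings, among them runs with 1 array left out. It was 0 without the replicate block, 0 with the random block, 2 with dim probesets left out and 2 with the trend. The share of all probesets called for SZ against DZ in the last 2 settings is not given here. These counts are therefore not read as a result about the members. With 1 array left out, the SZ minus DZ differences of AXIN2, WNT11, RSPO3 and FZD7 kept their sign.

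Signs turned only for differences that were not called. With a gene's probesets averaged, TCF7 gave 0.12 for SZ minus MZ, −0.012 for SZ minus DZ and −0.13 for MZ minus DZ, and FZD1 gave 0.083 for SZ minus MZ. Quantile normalisation turned TCF7 SZ minus DZ to −0.0058 and WNT11 SZ minus MZ to 0.012. The dCHIP table gave −0.24 for TCF7 SZ minus DZ, 0.076 for WNT11 SZ minus MZ, −0.32 for FZD8 SZ minus MZ and −0.17 for LRP5 SZ minus DZ. With 1 array left out, TCF7 ran from −1.01 to 0.070 (SZ minus MZ), −0.62 to 0.64 (SZ minus DZ) and −0.16 to 1.11 (MZ minus DZ). NKD2 ran from −0.29 to 0.57, −0.079 to 0.78 and −0.14 to 0.57 in the same order. For SZ minus MZ, WNT11 ran from −0.62 to 0.56, FZD1 from −0.36 to 0.083 and FZD8 from −0.32 to 0.39. RSPO3 MZ minus DZ ran from −1.36 to 0.63, CTNNB1 SZ minus DZ from −0.47 to 0.20 and LRP5 SZ minus DZ from −0.21 to 0.23. Signal near the lower quartile limits RSPO3, LEF1, TCF7 and CD44 in MZ.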

Other observations

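WNT10B, a ligand of the beta-catenin branch, was chosen for mention after its values were seen. It read 3.03 and 3.24 in SZ, 2.95 and 2.54 in MZ, and 6.80 and 3.88 in DZ of animal 1 and animal 2. Like RSPO3 it was highest in DZ of animal 1, where the animals differed 7.59-fold, a size reached by 0.258% of all probesets in that zone. Unlike RSPO3 it was not raised in MZ of animal 1. SZ minus DZ was −2.21 (SE 0.71, limma adjusted p = 0.185), so no zone difference was called. Without DZ of animal 1 the SZ minus DZ value was −0.79. DZ of animal 1 is also the array that stood apart on the bioB controls, and the part of this in the 2 genes was not tested.

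DKK1, DACT1 and CTNNBIP1 were also chosen after their values were seen. They are inhibitors that act outside the cell, below the cell membrane and in the nucleus, in that order. DKK1 read 1.89 and 2.41 in SZ, 2.83 and 2.82 in MZ and 3.36 and 4.57 in DZ, near the floor in the upper zones, with SZ minus DZ at −1.82 (limma adjusted p = 0.0504). DACT1 read 5.78 and 6.81 in SZ, 4.55 and 4.70 in MZ and 4.94 and 4.08 in DZ (SZ minus DZ 1.78, limma adjusted p = 0.108). CTNNBIP1, a small protein that keeps beta-catenin from TCF factors, read 8.80 and 8.34 in SZ and 9.70 and 9.82 in DZ (−1.19, limma adjusted p = 0.0932). None of the 3 passed in the fit to all 6 arrays. Further probesets gave smaller differences for CTNNBIP1 (−0.25, with overlapping SZ and DZ arrays) and for DKK1 (−0.36, on a probeset under the lower quartile in 5 of 6 arrays). A dimmer DACT1 probeset gave a larger SZ minus DZ difference (2.15, limma adjusted p = 0.0971), with SZ and DZ arrays that did not overlap. It lay under the lower quartile in 2 of 6 arrays. Without DZ of animal 1 the SZ minus DZ difference grew to 3.11 on it and 2.51 on the brighter probeset.

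COL9A1 and CNMD, cartilage matrix genes of the chondrocyte list chosen after their values were seen, also read higher in animal 1 than in animal 2. COL9A1 read 10.45 and 7.76 in DZ, and CNMD read 11.52 and 8.95 in MZ and 11.62 and 10.98 in DZ. Unlike RSPO3, both were also higher in animal 1 in SZ (8.41 and 6.49 for COL9A1, 7.88 and 5.12 for CNMD).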
